A study of Mus musculus with 6 samples.

Results

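Thy1, Ly6a, Ly6c1, Pi16, Dpp4, Cd34, Cd248, Scara5 and Gas1 encode cell surface or surface-associated proteins used to mark adventitial and progenitor-like fibroblasts. They were taken by symbol from the gene count table, as 9 of its 25239 rows, and all 9 passed the filter on low counts that left 14065 genes. They were selected on their expression differences between the senescent and quiescent libraries themselves, so those differences are given as a description with no test. Bulk RNA was read from primary lung fibroblasts of mouse in 6 libraries, 3 of cells made senescent with Nutlin 3a and 3 of quiescent cells. Nutlin 3a releases p53 from its inhibitor Mdm2. The labels describe 16 hours of RO3306, an inhibitor of Cdk1, then 48 hours of Nutlin 3a, then 100 nM of the Plk1 inhibitor BI-2536 against cells still dividing, for 12 days altogether. Quiescent samples carry this treatment text as well, and the sources used here do not state by what means quiescence was reached. All cells grew with 10% serum at 5% oxygen, and the labels name no strain, age, sex or number of animals.

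Adventitial fibroblasts lie in the connective tissue cuff around the larger vessels and airways of the lung, apart from the alveolar fibroblasts between the air spaces. Single-cell atlases of mouse tissues place fibroblasts with Pi16, Dpp4, Ly6a, Cd34 and Cd248 at the least specialised end of the lineage, and describe them as a reservoir for other fibroblast states. Thy1, Ly6a, Ly6c1 and Gas1 proteins are held in the outer membrane by a glycosylphosphatidylinositol (GPI) anchor, whereas Dpp4, Cd34, Cd248 and Scara5 proteins span it. Several of these markers also label other cells: Thy1 labels T cells, Ly6a blood stem cells, Ly6c1 monocytes and endothelium, and Cd34 endothelium and blood progenitors.

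The 9 genes did not move as a block. Thy1 and Ly6c1 were higher in senescent libraries, Scara5, Gas1, Cd248, Dpp4 and Cd34 were lower, and Ly6a and Pi16 were close to their quiescent levels. The 3 senescent libraries lay above all quiescent ones for 3 of the 9 genes and below them for 5, and overlapped them for Pi16. Over all tested genes, 38.4% lay above and 39.9% below without overlap, 78.3% in all. The median log2 fold change of the 9 genes was -0.82, beside -0.02 over all tested genes. Because these are bulk libraries, fewer cells of a type and less RNA per cell cannot be told apart. The same holds for removal of dividing cells by BI-2536 and a change within the cells that stayed.

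Levels are given as CPM, counts scaled to a common library total, after TMM adjustment, a step that assumes most genes do not differ. Libraries held 93736593 to 109706025 gene counts, of which 79.8% to 82.8% lay in Rn45s, Lars2 and Mir6236, treated here as ribosomal rows. All other rows together held 18219831 to 21386546 counts per library, so CPM values look low. Of 9 fibroblast markers all were tested, 3 rose and 5 fell (edgeR, adjusted p under 0.05), beside 36.7% and 37.8% of all tested genes. Their summed level was 2397 to 2889 CPM in senescent libraries and 4010 to 4105 CPM in quiescent libraries. Col3a1 fell the most, with 348 ± 46.2 CPM in senescent libraries and 1341.5 ± 70.4 CPM in quiescent libraries (SD, n = 3 each). Col5a1 rose the most, by 0.70 on the log2 scale. Col1a1, the main fibrillar collagen chain gene, did not pass (adjusted p = 0.086 in edgeR). It averaged 856 ± 104 CPM in senescent libraries and 967 ± 53.5 CPM in quiescent libraries. Senescent replicate 3 stood furthest from its group, with an SD over genes of 0.315 for its log2 difference from the other senescent libraries, against 0.193 to 0.274 in the other 5 libraries. Nothing in the labels says that replicates came from separate cultures or animals, so errors and p-values measure spread among these libraries alone, and that spread may be technical.

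**Figure D1:**
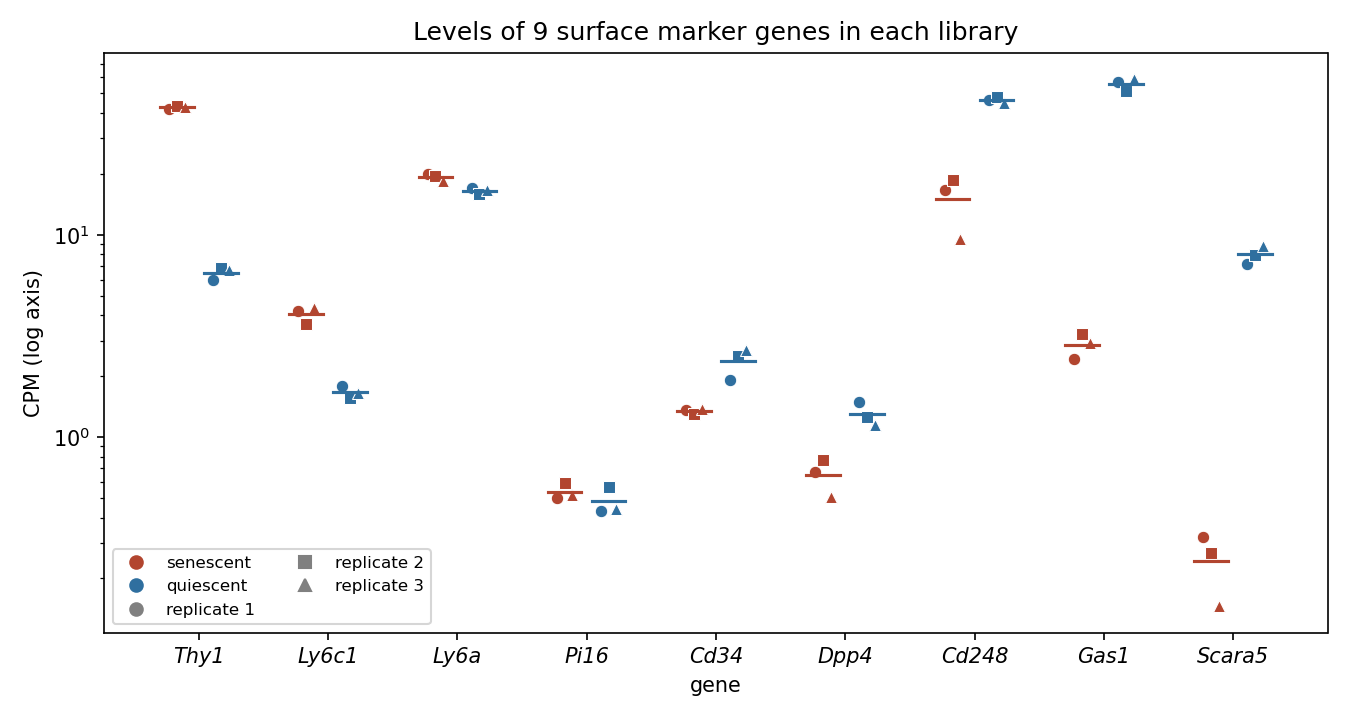
CPM of the 9 genes on a log axis, in senescent libraries (left of each pair, red) and quiescent libraries (blue); marker shapes give replicates 1 to 3 and bars the group means. Thy1 and Ly6c1 stand higher in senescent libraries, Cd34, Dpp4, Cd248, Gas1 and Scara5 lower, and Pi16 overlaps.

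Thy1, a small immunoglobulin-fold glycoprotein that binds integrins, was the gene with the largest increase. It had 41.9, 43.2 and 43.0 CPM in senescent libraries, against 5.96, 6.82 and 6.71 CPM in quiescent libraries. The senescent values lay close together (coefficient of variation 1.57%) and far above every quiescent value. The log2 fold change was 2.72 with a standard error of 0.06, 6.57 times the quiescent mean, which ranked 376 from the top of the 14065 tested genes. Thy1 lies on chromosome 9, from 44043384 to 44048579 on the plus strand of GRCm38, the assembly that mm10 names.

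Ly6a (Sca-1) and Ly6c1 (Ly6C) belong to one family of short GPI-anchored proteins and lie 46.0 kb apart on chromosome 15, both on the minus strand. Ly6a spans 74994877 to 74998031 and Ly6c1 spans 75044018 to 75048830. Ly6c1 had 4.22, 3.63 and 4.36 CPM in senescent libraries, against 1.79, 1.55 and 1.65 CPM in quiescent libraries. Every senescent value was above every quiescent one, and the log2 fold change was 1.29 (standard error 0.10). Ly6a had 20.02, 19.5 and 18.4 CPM in senescent libraries, against 17.1, 15.9 and 16.6 CPM in quiescent libraries. Its groups did not overlap, yet the difference was small (log2 fold change 0.22, standard error 0.05) and turned to -0.08 when libraries were scaled by their totals alone. The raw Ly6a counts were 1998, 1743 and 1891 in senescent libraries and 1816, 1889 and 1759 in quiescent libraries, so its direction depends on the scaling. The ratio of Ly6c1 to Ly6a counts within a library needs no scaling, and was 0.211, 0.187 and 0.237 in senescent libraries against 0.105, 0.0974 and 0.0995 in quiescent libraries. The 2 neighbours therefore differed unequally between the groups.

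Ly6c1 has a near-identical copy, Ly6c2, 59.3 kb further along the chromosome. Their 396 coding bases differ at 9 positions (97.7% identity), of which 6 fall in the first 90 bases. Those stretches are shown because they decide which reads can be told apart; they are the GENCODE M21 transcripts Ly6c1-201 and Ly6c2-201, coding bases 1 to 90, 5′ to 3′, with differing bases in capitals.
Ly6c1: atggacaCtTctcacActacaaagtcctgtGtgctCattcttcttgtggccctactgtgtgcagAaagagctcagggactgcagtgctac
Ly6c2: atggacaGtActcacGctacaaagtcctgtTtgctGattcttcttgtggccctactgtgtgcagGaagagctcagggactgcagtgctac
Of the 297 windows of 100 bases in the Ly6c1 coding sequence, the length of 1 read, 89 occur unchanged in Ly6c2 transcripts. Over the whole Ly6c1-201 transcript the share was 15.3%, and it was 0 against Ly6a. The Ly6c2 row held 4, 6 and 5 counts in senescent libraries and 3, 4 and 1 counts in quiescent libraries. The sources used here do not say how reads with several positions were counted, so the division between Ly6c1 and Ly6c2 is uncertain.

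Pi16, a secreted-type CAP domain protein and the namesake marker of these fibroblasts, was the scarcest of the 9 by counts in quiescent libraries. It had 50, 53 and 53 counts in senescent libraries and 46, 67 and 47 counts in quiescent libraries. As CPM these were 0.501, 0.592 and 0.515 in senescent libraries against 0.433, 0.565 and 0.443 in quiescent libraries. The groups overlapped, and the log2 fold change of 0.15 was smaller than its standard error of 0.17. It became -0.15 with scaling by library totals. Pi16 lies on chromosome 17, from 29317680 to 29330593 on the plus strand, and GENCODE places an exon of another gene opposite one of its exons.

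Dpp4 (CD26), a serine protease that removes dipeptides from chemokines and peptide hormones, was lower in senescent libraries. It had 0.671, 0.771 and 0.505 CPM in senescent libraries, against 1.49, 1.26 and 1.14 CPM in quiescent libraries. The groups did not overlap, and the log2 fold change was -1.003 (standard error 0.17), from 52 to 69 counts in senescent libraries and 121 to 158 counts in quiescent libraries. The gene lies on chromosome 2, from 62330073 to 62412231 on the minus strand, and has 28 exon blocks.

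Cd34, a sialomucin that carries dense sugar chains, had 1.36, 1.30 and 1.37 CPM in senescent libraries, against 1.92, 2.50 and 2.71 CPM in quiescent libraries. The senescent values were tightly grouped, and quiescent replicate 1 was the lowest of its group but still above them. The log2 fold change was -0.82 (standard error 0.13). Cd34 lies on chromosome 1, from 194938819 to 194961279 on the plus strand. An antisense gene, Gm16897, overlaps its exons and held 16, 20 and 23 counts in senescent libraries and 15, 17 and 24 counts in quiescent libraries.

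Cd248 (endosialin), a C-type lectin of perivascular and stromal cells that binds matrix proteins, had 16.6, 18.7 and 9.56 CPM in senescent libraries, against 46.2, 47.8 and 44.8 CPM in quiescent libraries. The log2 fold change was -1.63 (standard error 0.22). Senescent replicate 3 held the least, and without it the log2 fold change was -1.39. Cd248 is a gene of 1 exon on chromosome 19, from 5068078 to 5070682 on the plus strand.

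Scara5, a class A scavenger receptor that takes up ferritin, showed the largest difference of the 9. It had 0.321, 0.268 and 0.146 CPM in senescent libraries, against 7.18, 7.98 and 8.83 CPM in quiescent libraries. In counts these were 32, 24 and 15 against 763, 946 and 936. The quiescent mean was 32.7 times the senescent mean, and the log2 fold change was -5.03 (standard error 0.17), or -4.75 without senescent replicate 3. It ranked 15 from the bottom of the 14065 tested genes. Scara5 lies on chromosome 14, from 65666403 to 65764826 on the plus strand.

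Gas1 protein was named for its appearance in growth-arrested cells and serves as a co-receptor for Hedgehog ligands. The gene had 2.44, 3.23 and 2.91 CPM in senescent libraries, against 56.8, 51.7 and 58.7 CPM in quiescent libraries. The groups lay far apart: the quiescent mean was 19.5 times the senescent mean, and the log2 fold change was -4.29 (standard error 0.09), ranked 42 from the bottom. Gas1 is a gene of 1 exon on chromosome 13, from 60174405 to 60177365 on the minus strand. As for Dpp4 and Pi16, GENCODE has an exon of another gene on the opposite strand, so part of the count is uncertain.

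**Figure D2:**
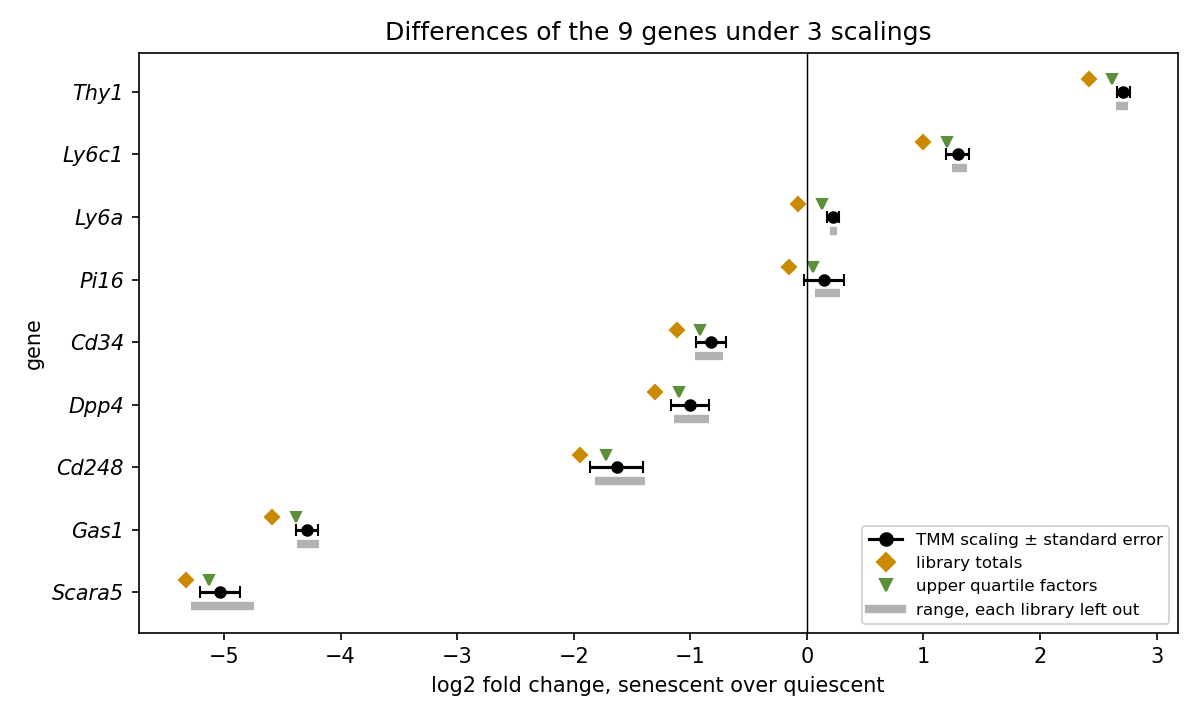
Log2 fold change (senescent over quiescent) of each gene with TMM scaling and its standard error (black), with library totals (diamonds), with upper quartile factors (triangles), and the range when each library is left out (grey). Only Ly6a and Pi16 change sign, to -0.08 and -0.15 with library totals.

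The proximal promoter is shown for Gas1 and Ly6c1, the genes furthest apart among the 5 of the 9 that matched the RefSeq promoter table (GRCm38.p6). Each is the 250 bases before the RefSeq start on the minus strand, 5′ to 3′, with motif matches in capitals. Gas1 is at chr13:60177536-60177785 and Ly6c1 at chr15:75048838-75049087.
Gas1: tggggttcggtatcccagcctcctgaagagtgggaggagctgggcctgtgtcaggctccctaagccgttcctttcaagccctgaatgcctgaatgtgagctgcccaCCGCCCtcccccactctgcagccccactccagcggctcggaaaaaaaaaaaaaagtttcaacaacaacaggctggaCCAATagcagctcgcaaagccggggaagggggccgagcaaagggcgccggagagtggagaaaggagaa
Ly6c1: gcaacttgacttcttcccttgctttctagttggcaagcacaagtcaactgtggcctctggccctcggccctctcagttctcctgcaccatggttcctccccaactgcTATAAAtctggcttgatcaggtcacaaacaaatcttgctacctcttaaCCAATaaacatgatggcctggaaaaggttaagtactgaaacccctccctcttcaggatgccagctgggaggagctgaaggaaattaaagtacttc
The motifs searched on both strands were the TATA box (TATAAA), the CCAAT box (CCAAT) and the GC box (GGGCGG), which do not overlap one another here. Gas1 holds a CCAAT box that begins 68 bases before the start and a GC box on the opposite strand at 144 bases. Ly6c1 holds a TATA box at 143 bases and a CCAAT box at 95 bases before this start, one of 2 RefSeq starts listed for the gene. The 250 bases before the other start hold none of these motifs (GC content 53.2%). Of 32851 windows of this length, 12.4% hold the TATA box, 33.8% the CCAAT box and 32.7% the GC box. The GC content was 58.8% for Gas1 and 48.4% for Ly6c1.

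Levels of different genes were compared per kilobase of annotated exon. In senescent libraries the order was Ly6a (16.0 ± 0.693 CPM per kb), Thy1 (14.3 ± 0.224), Cd248 (5.74 ± 1.83), Ly6c1 (2.43 ± 0.231), Gas1 (0.966 ± 0.133), Cd34 (0.184 ± 0.00558), Dpp4 (0.103 ± 0.0212), Pi16 (0.0842 ± 0.00773) and Scara5 (0.0402 ± 0.0147). In quiescent libraries it was Gas1 (18.8 ± 1.23 CPM per kb), Cd248 (17.8 ± 0.561), Ly6a (13.7 ± 0.480), Thy1 (2.17 ± 0.156), Scara5 (1.31 ± 0.136), Ly6c1 (0.992 ± 0.0705), Cd34 (0.326 ± 0.0562), Dpp4 (0.205 ± 0.0278) and Pi16 (0.0755 ± 0.0115). Values are means ± SD of 3 libraries. At these lengths, neighbours in each order had separate ranges. Exceptions were Dpp4 and Pi16 in senescent libraries and Gas1 and Cd248 in quiescent libraries, whose ranges overlapped. Exon lengths were merged over isoforms, 1677 bases for Ly6c1. A gene read mainly from a shorter isoform would stand higher, so the order of close neighbours depends on that choice. Scara5 stood at the bottom of the order in senescent libraries and in the middle in quiescent libraries.

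As shares of the summed level of the 9 genes per kilobase, Ly6a held 40.2% ± 1.08 in senescent libraries and 24.8% ± 0.514 in quiescent libraries (SD, n = 3 each). Thy1 held 35.9% ± 2.29 in senescent libraries and 3.92% ± 0.328 in quiescent libraries. Gas1 held 2.43% ± 0.352 in senescent libraries and 34.0% ± 1.58 in quiescent libraries, and Cd248 held 14.3% ± 3.90 in senescent libraries and 32.1% ± 1.62 in quiescent libraries. Scara5 held 0.0998% ± 0.0328 in senescent libraries and 2.37% ± 0.242 in quiescent libraries. Ly6a and Thy1 thus led the sum in senescent libraries, and Gas1 and Cd248 in quiescent libraries. The ratio of Thy1 to Gas1 counts, free of any scaling between libraries, was 17.2, 13.4 and 14.8 in senescent libraries against 0.105, 0.132 and 0.114 in quiescent libraries. Gas1 counts exceeded Thy1 counts in all 3 quiescent libraries, and the reverse held in all 3 senescent libraries.

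**Figure D3:**
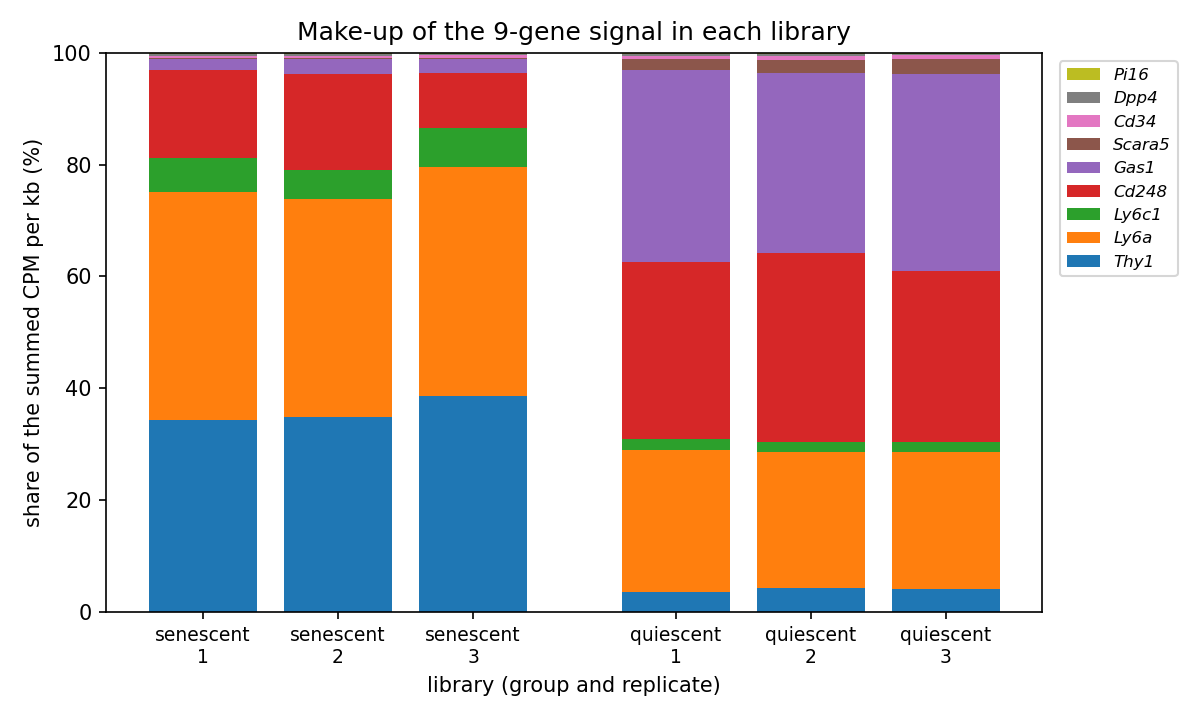
Share (%) of the summed CPM per kb of the 9 genes held by each gene, 1 bar per library, senescent libraries on the left and quiescent libraries on the right. Thy1 holds 34.3% to 38.5% in senescent libraries and 3.56% to 4.21% in quiescent libraries, and Gas1 holds 2.02% to 2.64% in senescent libraries and 32.2% to 35.3% in quiescent libraries.

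The relatives and partners of each gene were read from the fit over all genes, with edgeR's quasi-likelihood test and Benjamini-Hochberg adjustment over 14065 genes at 0.05. That test called 36.7% of all tested genes higher and 37.8% lower in senescence, 74.5% in all. These were 5158 and 5316 genes with TMM, and 2952 and 7435 genes with library totals. The lists hold none of the 9 genes.

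Thy1 protein on one cell can bind integrins alpha v beta 3 and alpha 5 beta 1 and the proteoglycan syndecan 4, and sits in membrane rafts with Src family kinases. A wider list of integrins, receptors and raft proteins reported as partners had 12 tested genes, without the integrin beta 1 gene Itgb1. Of these 8 rose and 2 fell, with a median log2 fold change of 0.80. Itgb3, the integrin beta 3 gene, averaged 40.2 ± 4.81 CPM in senescent libraries and 2.44 ± 0.485 CPM in quiescent libraries, an increase of 4.05 on the log2 scale (adjusted p = 4.2e-08 in edgeR). Itga5, the integrin alpha 5 gene, averaged 146 ± 2.06 CPM in senescent libraries and 21.3 ± 1.04 CPM in quiescent libraries (log2 fold change 2.78, standard error 0.05). Itgav and Sdc4, named after their values were seen as the integrin alpha v chain and the syndecan, rose by 1.29 and 1.73 on the log2 scale. Itgb1, counted with the other mesenchymal surface markers, rose by 1.17. Pag1, an adaptor that recruits the kinase Csk to rafts, fell by 1.51, and Adgre5, the gene of the CD97 receptor, fell by 0.41. With library totals 7 rose and 4 fell.

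Hedgehog ligands are bound at the receiving cell by Ptch1 together with the co-receptors Gas1, Cdon and Boc, and act through Smo on the Gli factors. Of 12 tested genes of the pathway other than Gas1, 11 fell and none rose, with a median of -0.99. Hhip, a decoy receptor gene, did not pass, at 0.43 on the log2 scale (standard error 0.26, adjusted p = 0.17 in edgeR). Cdon averaged 7.19 ± 1.38 CPM in senescent libraries and 30.7 ± 0.811 CPM in quiescent libraries (-2.10 on the log2 scale, adjusted p = 5.6e-07 in edgeR). Boc, named after its values were seen because it is the remaining co-receptor, averaged 5.22 ± 1.12 CPM in senescent libraries and 9.31 ± 0.229 CPM in quiescent libraries (log2 fold change -0.84). All 3 co-receptor genes were therefore lower in senescent libraries. Gli2, a transcription factor of the pathway, averaged 0.696 ± 0.165 CPM in senescent libraries and 5.40 ± 0.366 CPM in quiescent libraries (log2 fold change -2.97, standard error 0.13). Shh had no count in any library. Without senescent replicate 1, and without a filter on low counts, 1 gene of the list was called higher.

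The structural kin of Gas1 are the GDNF receptor alpha chains, which signal with Ret. Of 4 tested, Gfra2 fell by 1.30 and Gfra4 by 1.13 on the log2 scale, Gfra1 was at 0.13 (adjusted p = 0.25 in edgeR), and Ret rose by 2.44 on a low level. Ret averaged 0.600 ± 0.0959 CPM in senescent libraries and 0.109 ± 0.0275 CPM in quiescent libraries. Gfra4 was also low, with 15, 15 and 6 counts in senescent libraries and 27, 36 and 27 counts in quiescent libraries. At a minimum count of 50, 1 gene of this list fell, against 2 in the main fit.

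Both tested class A scavenger receptor relatives of Scara5 fell. Colec12 averaged 22.5 ± 2.43 CPM in senescent libraries and 61.1 ± 2.03 CPM in quiescent libraries (log2 fold change -1.44, adjusted p = 1.1e-08 in edgeR). Scara3 averaged 5.13 ± 0.859 CPM in senescent libraries and 16.7 ± 1.49 CPM in quiescent libraries (log2 fold change -1.71). The macrophage receptors Msr1 and Marco were below the filter. Msr1 had 9, 7 and 15 counts in senescent libraries and 1, 2 and 4 counts in quiescent libraries. Marco had 2, 0 and 6 counts in senescent libraries and 0 in each quiescent library. Without a filter on low counts, 2 genes of this list were called higher and 2 lower. Among 6 tested genes of iron transport, ferritin and ferritin breakdown, 4 rose and none fell. Tfrc, the transferrin receptor gene, averaged 36.6 ± 2.67 CPM in senescent libraries and 9.78 ± 0.189 CPM in quiescent libraries (log2 fold change 1.91, adjusted p = 2.4e-10 in edgeR). Ftl1, the ferritin light chain gene, rose by 0.94, Slc11a2, an iron transporter gene, by 0.92 and Ncoa4, the ferritin-degradation receptor gene, by 0.28. Fth1, the ferritin heavy chain gene, had a log2 fold change of 0.06 (adjusted p = 0.49 in edgeR), and Slc40a1, the iron exporter gene, of -0.26 (adjusted p = 0.21 in edgeR). With library totals Ncoa4 no longer passed (-0.01) and 2 genes of this list fell, and without quiescent replicate 1 there was 1 that fell.

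Cd248 belongs to the group XIV C-type lectins with Thbd, Cd93 and Clec14a. Thbd, the thrombomodulin gene, averaged 174 ± 5.06 CPM in senescent libraries and 64.3 ± 0.567 CPM in quiescent libraries (log2 fold change 1.44, adjusted p = 3.5e-10 in edgeR). Cd93 averaged 2.42 ± 0.379 CPM in senescent libraries and 0.240 ± 0.0551 CPM in quiescent libraries (log2 fold change 3.34). Clec14a averaged 0.0585 ± 0.0404 CPM in senescent libraries and 0.453 ± 0.115 CPM in quiescent libraries (log2 fold change -2.93). Relatives of Cd248 thus differed in both directions. The matrix protein gene Mmrn2, a reported ligand of the family, had a log2 fold change of -0.71 (adjusted p = 0.047 in edgeR), a call lost without any one of 4 libraries and in DESeq2 (adjusted p 0.10 to 0.16).

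Cd34 has 2 sialomucin relatives. Podxl, the podocalyxin gene, averaged 1.97 ± 0.730 CPM in senescent libraries and 0.235 ± 0.0269 CPM in quiescent libraries, a rise of 3.07 on the log2 scale (standard error 0.31, adjusted p = 2.0e-05 in edgeR). Podxl2 averaged 0.852 ± 0.0730 CPM in senescent libraries and 0.849 ± 0.0415 CPM in quiescent libraries (log2 fold change 0.00, standard error 0.13). Among 8 tested peptidase relatives of Dpp4, 3 rose and 5 fell, with Prepl at 0.79, Prep at 0.40, Dpp7 at -0.54 and Dpp9 at -0.43 on the log2 scale. Their median was -0.39, and with library totals 1 rose. Of 4 tested CAP domain relatives of Pi16, Glipr1 rose by 1.41 and Glipr2 by 0.35. With library totals 1 rose and 1 fell, and without senescent replicate 2 there were 3 that rose and 1 that fell. Crispld1 (0.26, adjusted p = 0.34) and Crispld2 (-0.25, adjusted p = 0.14) did not pass in edgeR.

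**Figure D4:**
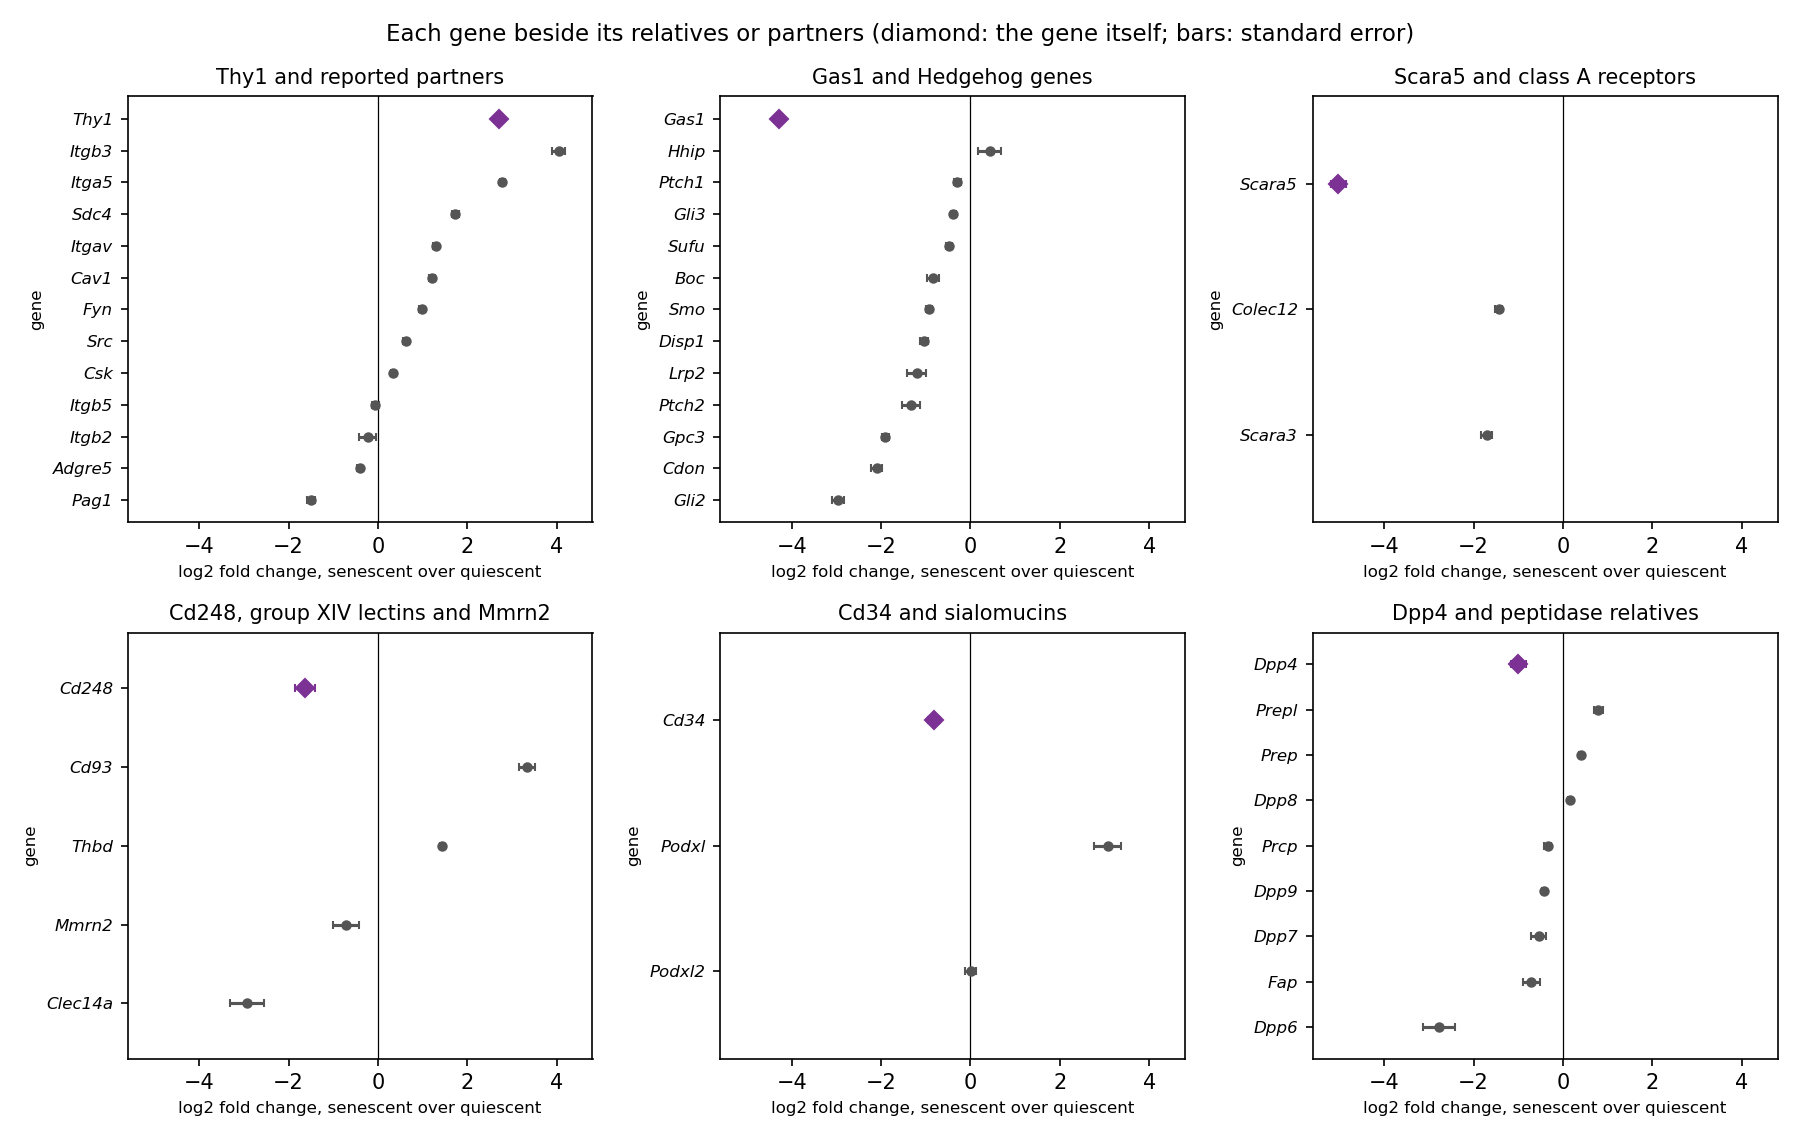
Log2 fold change (senescent over quiescent) with its standard error for 6 of the 9 genes (purple diamonds) and the tested relatives or partners of each (grey). Hedgehog genes other than Hhip and the class A receptors lie below 0 with Gas1 and Scara5, and most Thy1 partners lie above 0. The relatives of Cd248 and Dpp4 lie on both sides. Of the Cd34 relatives, Podxl lies above 0 and Podxl2 at about 0.

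Of 23 other genes with the Ly6 or urokinase receptor fold, 6 passed the filter, of which 3 rose and 3 fell. Plaur, the urokinase receptor gene, averaged 53.3 ± 6.45 CPM in senescent libraries and 5.26 ± 0.212 CPM in quiescent libraries (log2 fold change 3.34, adjusted p = 2.6e-10 in edgeR). Cd59a, which encodes an inhibitor of the complement pore, rose by 1.97, and Ly6k, with a mean under 1 CPM in both groups, by 2.60. Lypd1 fell by 0.76, Lynx1 by 0.60 and Ly6e by 0.25 on the log2 scale. Of 28 tested enzymes of GPI anchor synthesis and remodelling, which the anchored proteins need, 7 rose and 15 fell, with a median of -0.28. Pigp fell by 1.02 and Mppe1 by 0.86, whereas Dpm2 and Pigw rose by 0.51 each. With library totals 19 fell and none rose, so the 7 increases depended on the scaling.

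The nearest wider list was that of 27 other adventitial and progenitor fibroblast genes, all of them tested. Of these 7 rose, 14 fell and 6 did not pass, with a median log2 fold change of -0.23. Adamts5, an aggrecanase gene, averaged 12.1 ± 3.88 CPM in senescent libraries and 173 ± 17.6 CPM in quiescent libraries (log2 fold change -3.84, adjusted p = 8.7e-06 in edgeR). Col14a1, a fibril-associated collagen gene, averaged 34.4 ± 3.26 CPM in senescent libraries and 157 ± 16.9 CPM in quiescent libraries (log2 fold change -2.19). Procr, the endothelial protein C receptor gene, averaged 26.2 ± 4.10 CPM in senescent libraries and 2.48 ± 0.643 CPM in quiescent libraries (log2 fold change 3.40, adjusted p = 4.2e-06 in edgeR). Has1, a hyaluronan synthase gene, rose by 2.96. Named after their values were seen as further markers of these cells, Efemp1 fell by 1.98, Clec3b by 1.90 and Gsn by 1.65, and Dpt had a log2 fold change of -0.23 whose call was lost without any one of 4 libraries and in DESeq2 (adjusted p 0.062 to 0.19).

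Alveolar fibroblast genes gave 8 lower and 1 higher of 16 tested (median -0.45), and 2 higher without senescent replicate 3. With library totals 12 were lower and 1 higher (median -0.76). Limch1, an actin-binding protein gene, averaged 8.17 ± 2.90 CPM in senescent libraries and 145 ± 4.39 CPM in quiescent libraries, a log2 fold change of -4.15. G0s2, which encodes a lipase inhibitor, fell by 3.06, and Npnt, the nephronectin gene, rose by 1.92. Of 17 tested other mesenchymal surface markers, 7 rose and 7 fell (median 0.12, or -0.18 with library totals). Cd44, the hyaluronan receptor gene, averaged 223 ± 24.9 CPM in senescent libraries and 34.8 ± 1.25 CPM in quiescent libraries (log2 fold change 2.68, adjusted p = 2.2e-10 in edgeR). Ncam1, an adhesion molecule gene, rose by 1.85, and Pdpn, the podoplanin gene named after its value was seen, by 1.82. The platelet-derived growth factor receptor gene Pdgfra fell by 1.45, and Pdgfrb by 1.01. Members of both fibroblast lists and of the surface list lay on either side of 0.

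**Figure D5:**
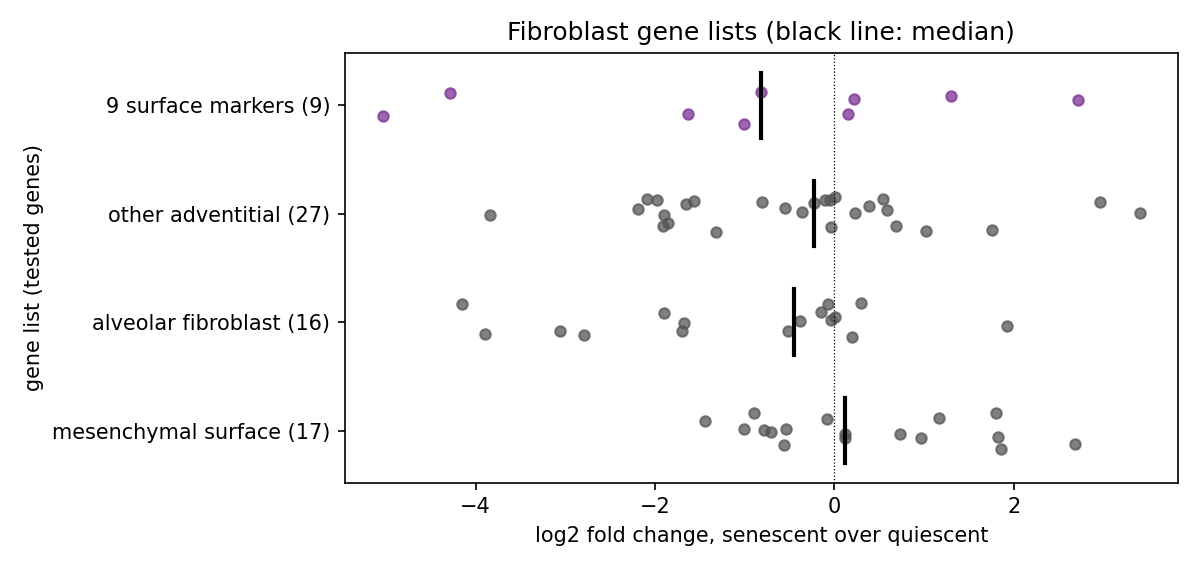
Log2 fold change (senescent over quiescent) of every tested gene in 4 fibroblast lists, with black lines at the medians (-0.82, -0.23, -0.45 and 0.12 from top to bottom). Every list holds genes on both sides of 0; vertical spread within a row carries no value.

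Of 11 blood cell markers, the T cell genes Cd3e and Cd3g were at 0 in all libraries, 1 passed the filter (Kit, which fell), and the summed level of the list ran from 0.268 to 0.496 CPM in senescent libraries and from 1.27 to 1.45 CPM in quiescent libraries. Of 9 endothelial markers, 4 were tested, 1 rose and 1 fell, and the sum ran from 3.55 to 5.16 CPM in senescent libraries and from 5.56 to 5.99 CPM in quiescent libraries. Pecam1, which defines endothelium, averaged 0.0549 ± 0.00582 CPM in senescent libraries and 0.0367 ± 0.0173 CPM in quiescent libraries. Tek, an angiopoietin receptor gene, averaged 0.534 ± 0.103 CPM in senescent libraries and 3.40 ± 0.115 CPM in quiescent libraries, and Cdh5, the VE-cadherin gene, averaged 1.16 ± 0.420 CPM in senescent libraries and 0.234 ± 0.0220 CPM in quiescent libraries. The endothelial markers thus differed in both directions, and most of the blood cell sum in quiescent libraries was Kit, with 0.205 ± 0.0964 CPM in senescent libraries and 1.20 ± 0.0803 CPM in quiescent libraries. Ptprc, which defines blood cells, averaged 0.0602 ± 0.0346 CPM in senescent libraries and 0.00943 ± 0.00944 CPM in quiescent libraries. Among 10 macrophage markers, 6 were tested and all 6 rose. The sum of the list was 11.02 to 14.8 CPM in senescent libraries and 4.07 to 4.28 CPM in quiescent libraries. Adgre1, which defines macrophages, averaged 0.0990 ± 0.0184 CPM in senescent libraries and 0.00944 ± 0.0163 CPM in quiescent libraries. Pericyte and smooth muscle markers, 9 of 10 tested, gave 6 higher and 2 lower, with a sum of 215 to 324 CPM in senescent libraries and 102 to 122 CPM in quiescent libraries. Of 9 mesothelial markers, 8 were tested, 2 rose and 3 fell, with sums of 10.9 to 13.4 CPM in senescent libraries and 10.4 to 11.9 CPM in quiescent libraries. Of 8 neural markers, 5 were tested, 2 rose and 3 fell, with sums of 2.34 to 3.64 CPM in senescent libraries and 8.53 to 9.09 CPM in quiescent libraries. No epithelial marker of 8 passed the filter. Their part in the values of the 9 genes was not tested.

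For each of the 9 genes the closest profile was sought among 13187 other tested genes, as the Euclidean distance between log2 CPM over the 6 libraries, each gene centred on its mean. The nearest to Thy1 was Itga5 at 0.107, to Ly6a Tceal8 at 0.0441, to Ly6c1 Ppp1r13l at 0.137 and to Pi16 Foxred2 at 0.119. The nearest to Cd248 was Synpo at 0.136, to Cd34 Ccdc138 at 0.140, to Dpp4 Crip1 at 0.186, to Gas1 Klhdc7a at 0.300 and to Scara5 Agtr2 at 0.542. In senescent libraries Klhdc7a had 0.0701, 0.112 and 0.0875 CPM and Agtr2 had 0.0301, 0.0335 and 0.0194 CPM. At such low levels the prior count of 2 weighs on the distance. Within a distance of 0.5 there were 4489 genes for Ly6a and 3274 for Pi16, 60 for Thy1, 9 for Gas1 and 0 for Scara5. Synpo shared the low value of Cd248 in senescent replicate 3, at 42.3, 45.7 and 24.7 CPM in senescent libraries against 111, 112 and 104 CPM in quiescent libraries.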

How the data were processed

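Total RNA was depleted of ribosomal RNA and sequenced as paired reads of 100 bp from directional libraries, per the labels' protocols. Even so, the rows treated here as ribosomal held 79.8% to 82.8% of the gene counts. Per the file headers and values, the authors deposited a table of raw, whole-number counts by gene symbol. The submitters' processing notes name the build mm10, edgeR 3.32.1 and limma 3.46.0. The aligner, the counting tool and any use of strand are not stated, so counts of overlapping or antisense genes are uncertain. The deposited repeat counts were not used.

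Genes were fitted once with edgeR 4.0.16 in R 4.3.3: filterByExpr (minimum count 10), TMM, the robust quasi-likelihood test and Benjamini-Hochberg adjustment over 14065 genes at 0.05. A standard error is the size of the log2 fold change over the root of F. The test was checked on simulated counts in which few genes changed, in equal numbers up and down. Such counts cannot check the scaling in these data, where 74.5% of tested genes were called. Profiles used log2 CPM with a prior count of 2. Gene positions and exon lengths, merged over isoforms, came from GENCODE M21, which held all 9 symbols.

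The 9 genes, the gene lists and the naming rule were chosen with earlier results of these data known. That rule takes, from each list, at most 2 called higher and 2 called lower among genes averaging at least 0 on the log2 CPM scale, all tested genes of lists with up to 7, and the closest profile to each of the 9. Alternatives were DESeq2 1.42.0, limma-voom (limma 3.58.1), other scalings, filters and thresholds, a replicate block, and leaving out single libraries.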

Additional observations from a re-analysis of the deposited data

How the results depend on the processing

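The direction of 7 of the 9 genes held in every alternative run. Library totals without TMM, under which the median of all tested genes was -0.32, against -0.02 with TMM, gave 2.42 for Thy1, 1.00 for Ly6c1, -0.077 for Ly6a, -0.15 for Pi16, -1.12 for Cd34, -1.31 for Dpp4 and -4.59 for Gas1, and 2952 higher and 7435 lower genes, against 5158 and 5316 with TMM. Upper quartile factors (median -0.12) gave 2.62 for Thy1 and 0.13 for Ly6a. Against a 2-fold threshold (glmTreat), 1154 genes were higher and 1309 lower, and of the other adventitial genes 3 were higher and 10 lower. Of the Hedgehog genes, 0 were higher and 3 lower at that threshold. Leaving out each library gave 4860 to 5331 higher and 4901 to 5416 lower genes, and 7 to 8 higher and 13 to 14 lower adventitial genes. With the replicate number as a block (replicate block), 5124 genes were higher and 5281 lower, and the adventitial counts were 7 and 14. The block also gave 1 higher Hedgehog gene and 1 lower CAP relative, against 0 of each without it. Same-numbered libraries deviated with correlations of 0.0512, -0.0101 and 0.0579 over genes, and the labels do not say that a number marks a shared culture, so the block was not preferred.

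Among genes that did not pass, signs turned for Podxl2 (-0.29 with library totals, -0.090 with upper quartile factors, -0.0062 at a minimum count of 50, and -0.047 to 0.077 with a library left out), Fth1 (-0.24 with library totals, -0.038 with upper quartile factors, and -0.00079 to 0.12 with a library left out), Gfra1 (-0.17 with library totals) and Crispld1 (-0.028 with library totals, and -0.063 to 0.48 with a library left out). Ncoa4, which passed, was at -0.014 with library totals. The cause was not tested. Counts under 100 limit Pi16, and senescent Dpp4 and Scara5.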
